A study of Mus musculus with 18 samples.

Results

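The 6 libraries described here are the 3 of siChst7 cells at day 3 and the 3 of siChst7 cells at day 1, of 18 libraries in all, taken by their labels and across every gene of the deposited count table. The cells are iMGT-Myh6-eGFP-MEF, a line of mouse embryonic fibroblasts in which doxycycline switches on Mef2c, Gata4 and Tbx5 (MGT) and whose name carries an eGFP reporter under the Myh6 gene. At day 3 the siChst7 cells had been transfected with an siRNA against Chst7 and kept with 1 µg/mL doxycycline since day 0, and at day 1 they had had the same siRNA and 1 day of the drug. The siControl cells of day 3 and of day 1, also 3 libraries each, differ in the siRNA alone and are used only for the same interval. All of these groups carry the transgenes and received doxycycline, so cells without induction were not available at day 3 or day 1, and a change over the interval cannot be told apart from 2 more days in the plate. Cells were seeded at 1000 per well of 384-well plates and 40 wells were pooled for each library, which the labels call a biological replicate. Only 1 line was used, poly-A RNA was sequenced, and in such bulk samples fewer cells of a type and less RNA per cell cannot be told apart.

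Cardiac reprogramming forces fibroblasts to express transcription factors of the heart, which bind regulatory regions of muscle genes and switch on sarcomere and calcium-handling genes while fibroblast genes are turned down. The sarcomere is built of thin filaments (actin, troponin, tropomyosin), thick filaments (myosin) and the Z-disc that anchors them, and the sarcoplasmic reticulum stores the calcium that drives contraction. The product of Chst7 is an enzyme of the Golgi that sulfates chondroitin chains on proteoglycans.

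The 3 day 3 libraries of siChst7 cells held 33957750, 41435639 and 30590742 counts, and the 3 day 1 libraries 39246932, 44807490 and 39746343. Of 24514 genes, 13802 passed the filter on low counts and were tested. On a principal component analysis of the 6 libraries the first component held 74.3% of the variance and separated the days (46.4, 36.7 and 49.5 at day 3, and -44.6 to -43.7 at day 1). The second held 7.77% and set replicate 2 of day 3 (-27) apart from replicate 3 (22.3). The day 3 libraries differed from one another more than those of day 1 did: the chi-square per degree of freedom between pairs of replicates was 21.2 to 55.3 at day 3 and 3.39 to 5.27 at day 1. Rn45s, the ribosomal RNA precursor, took 1.96%, 0.605% and 0.654% of the counts at day 3, against 0.307% to 0.357% at day 1.

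The ratio of day 3 to day 1 also varied with gene length, and replicate 2 of day 3 differed most from the other replicates in the shortest genes. How much of the spread among the day 3 libraries goes with length was not tested. The tested genes were cut by length into 10 groups of equal size. In the shortest group (1120 bases or less) the median log2 ratio to the day 1 mean was 0.40, 0.15 and 0.45 in replicates 1, 2 and 3, and in the longest group (6400 bases or more) it was -0.16, -0.15 and -0.18. Of the 1381 genes in the longest group, 294 rose and 719 fell, and in the shortest group, of the same number, 721 rose and 138 fell. In siControl cells the median was 0.00 in the shortest group and -0.13 in the longest. Ribosomal protein genes, which are short and have many near-identical copies, went with the same trend: 43 of 76 rose and 13 fell, with 53 and 11 when replicate 2 of day 3 was left out, and 14 and 32 with the length trend removed. The part of this length trend in the single results was not tested. Some gene groups with short members are given below also from a fit that removes it. The counts and medians of the thin and thick filament lists, with short members such as Tnni2 (667 bases) and Myl7 (590 bases), are not.

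**Figure D1:**
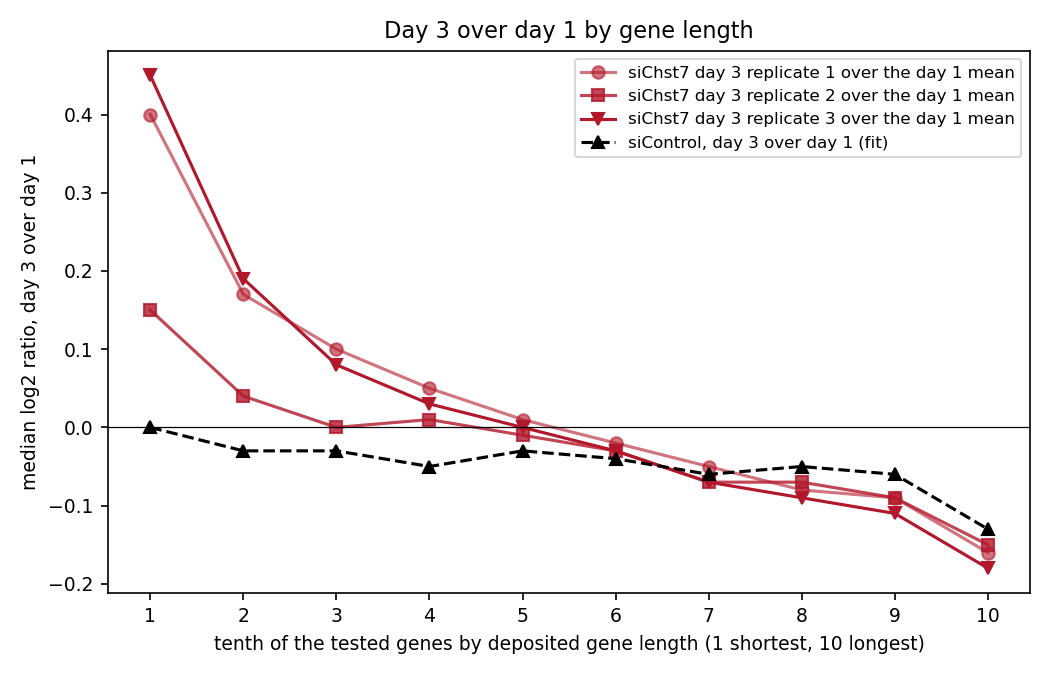
Median log2 ratio of day 3 over day 1 (vertical axis) in each of the 10 groups of tested genes by length (horizontal axis, 1 the shortest), for each of the 3 siChst7 day 3 libraries against the mean of day 1, and for siControl cells from the fit. Replicates 1 and 3 reached 0.40 and 0.45 in the shortest group and replicate 2 reached 0.15, while siControl cells stood at 0.00.

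Transcripts of the siRNA target Chst7 (chromosome X, 20058963 to 20099991, RefSeq GRCm38.p6, as for all gene positions here) stayed scarce with siChst7 but were not level over time. It had 0.238, 0.611 and 0.465 CPM (counts scaled by library size with TMM) at day 0, 0.95, 0.581 and 0.733 at day 1 and 2.96, 1.87 and 1.64 at day 3. The siControl libraries held 18.6 to 19.7 CPM at day 0, 35.3 to 40.4 at day 1 and 23.8 to 25.9 at day 3. The siChst7 and siControl libraries did not overlap at any day. Within siChst7 cells Chst7 rose by 1.52 ± 0.23 (log2 fold change ± SE of day 3 over day 1; adjusted p = 6.54e-06, edgeR quasi-likelihood test), from 236 counts over the day 3 libraries and 89 over those of day 1. In siControl cells the log2 fold change was -0.58, and the difference between the changes was 2.10 ± 0.26 (adjusted p = 1.58e-05).

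Day 3 against day 1 in siChst7 cells moved 8998 genes past an adjusted p of 0.05 in edgeR (65.2% of those tested), 4375 of them higher (31.7%) and 4623 lower (33.5%). At least 2-fold, 1182 rose (8.56%) and 295 fell (2.14%), and 8903 genes had groups that did not overlap (64.5%). The median log2 fold change over all tested genes was 0.01. With scaling by library totals the median was 0.12 and 60.9% of the called genes were higher at day 3, against 48.6% here. The counts of each gene group below are to be read against these shares, since a group with about 1 in 3 members higher and as many lower is like the whole table.

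**Figure D2:**
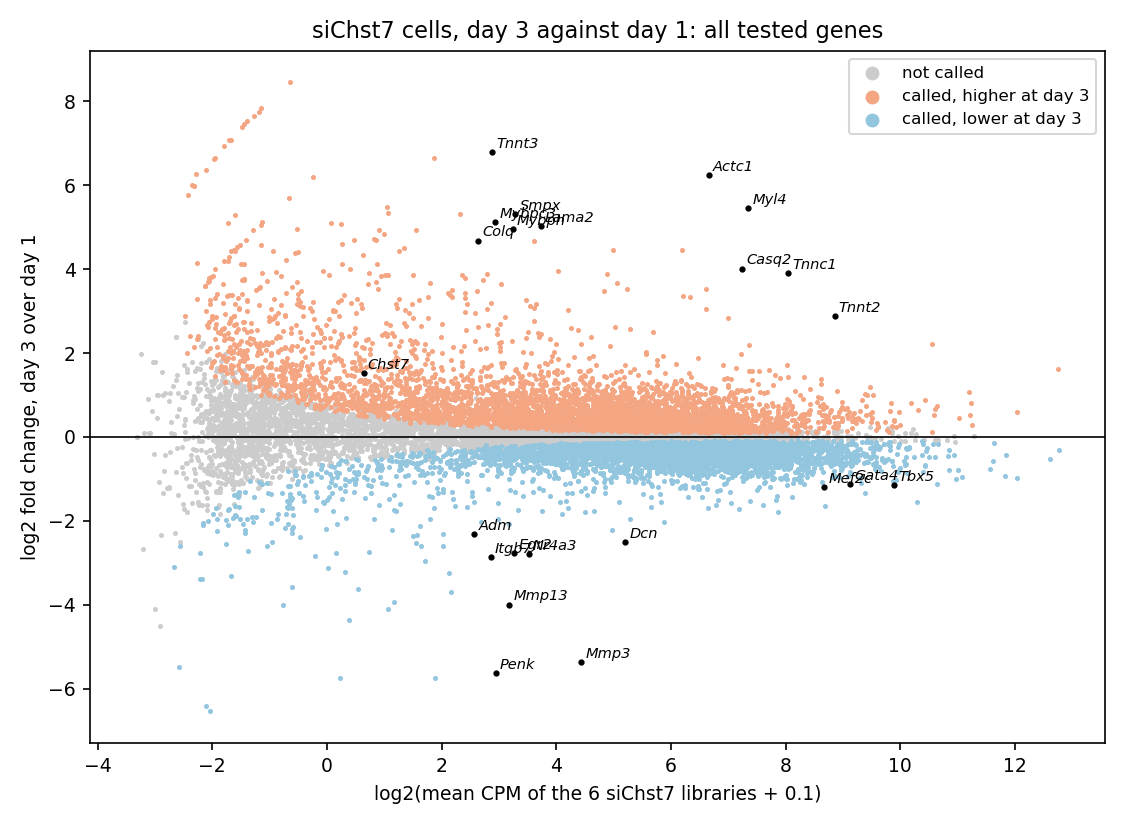
Each point is 1 of the 13802 tested genes, with its mean level over the 6 siChst7 libraries as log2(CPM + 0.1) on the horizontal axis and its log2 fold change of day 3 over day 1 on the vertical axis, coloured by call. Genes named in black include Actc1 at 6.24 and Penk at -5.63; the line of points at the upper left holds genes at or near 0 counts at day 1, whose fitted fold changes depend on the prior count.

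Among genes with at least 5 CPM on average the 8 largest rises were all genes known from muscle or its matrix. Cardiac actin Actc1 (chromosome 2, 114047282 to 114052875) had 214, 152 and 231 CPM at day 3, against 2.72, 2.09 and 3.14 at day 1, a log2 fold change of 6.24 ± 0.17 (adjusted p = 8.98e-18, edgeR). Every day 3 library was far above every day 1 library, with replicate 2 the lowest. Tnnt3, the fast skeletal troponin T, had 16.3, 10.4 and 16.3 CPM at day 3 and 0.185, 0.093 and 0.105 at day 1. Atrial and embryonic myosin light chain Myl4 (chromosome 11, 104546017 to 104587215) had 353, 254 and 347 CPM at day 3 and 8.05, 5.72 and 8.09 at day 1, a rise of 5.45 ± 0.13. The small muscle protein Smpx rose by 5.31 ± 0.24, the laminin chain Lama2 of the muscle basement membrane by 5.03 ± 0.15, the collagen tail of acetylcholinesterase Colq by 4.68 ± 0.26, and the myosin-binding proteins Mybpc3 and Mybph by 5.12 ± 0.17 and 4.96 ± 0.14. For these 8 genes the log2 fold changes in siControl cells were 4.27 to 6.00, and only that of Myl4 differed between the siRNAs (difference 1.18, adjusted p = 7.29e-05, edgeR).

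**Figure D3:**
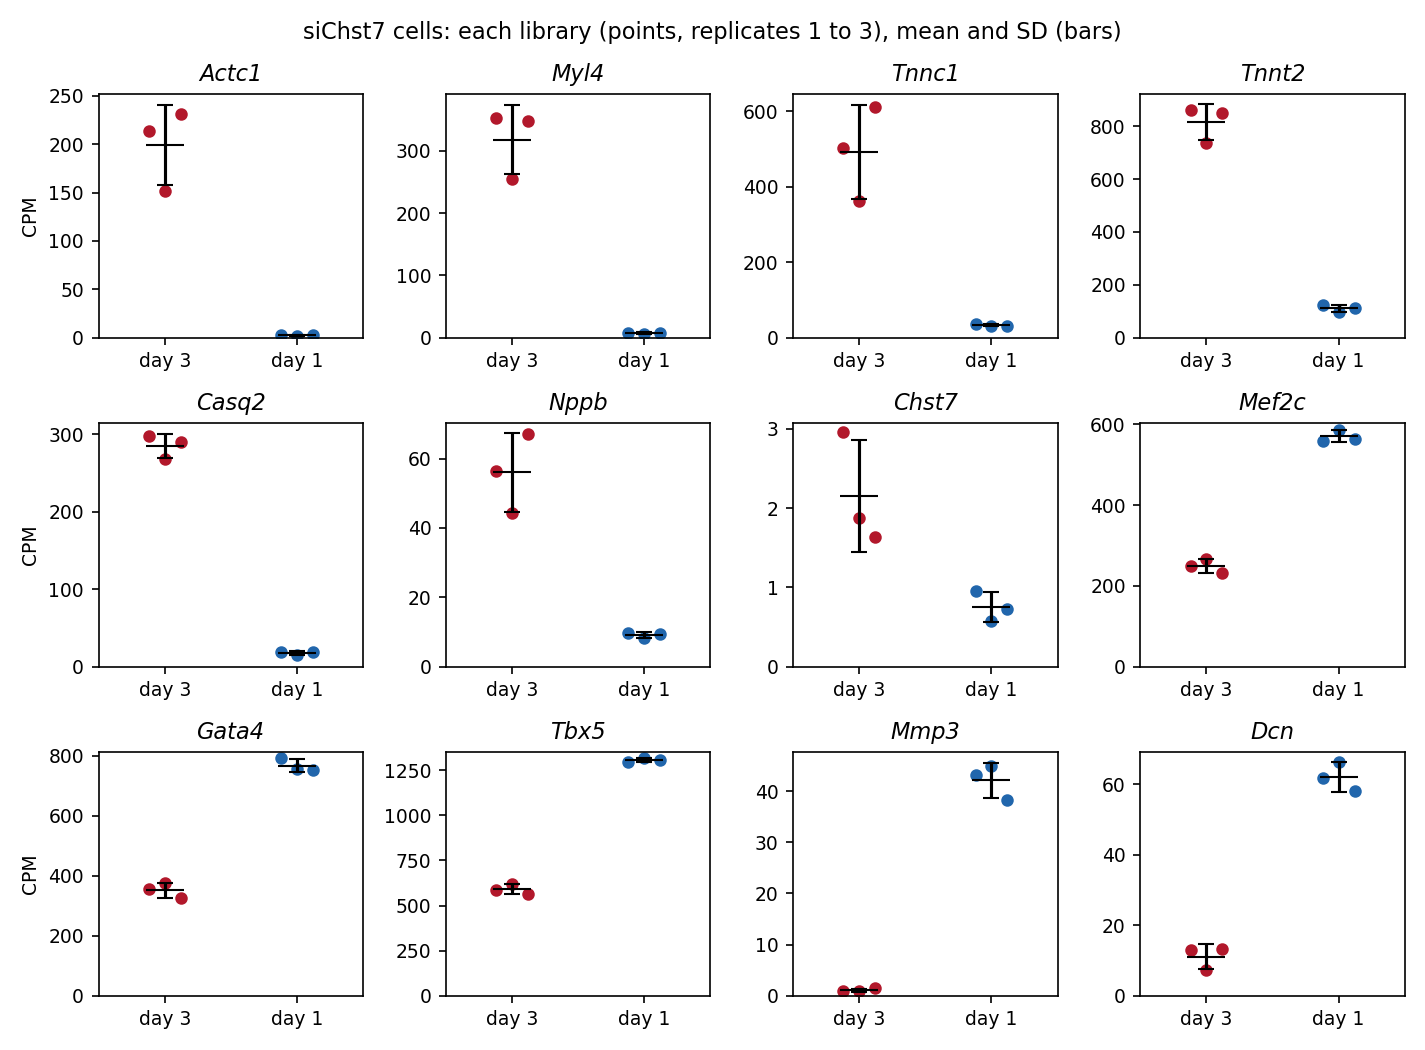
CPM (vertical axes, each from 0) in the 3 siChst7 libraries of day 3 (red, left) and the 3 of day 1 (blue, right) for 12 genes, with the mean and SD as bars. In each panel the days do not overlap: the muscle genes and Chst7 are higher at day 3, and the delivered factors, Mmp3 and Dcn are lower.

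The delivered factors themselves all fell. Mef2c had 250, 266 and 231 CPM at day 3 and 560, 587 and 565 at day 1 (log2 fold change -1.20 ± 0.05). Gata4 had 355, 375 and 326 CPM at day 3 and 791, 757 and 753 at day 1 (-1.12 ± 0.05). Tbx5 had 588, 621 and 565 CPM at day 3 and 1299, 1317 and 1305 at day 1 (-1.14 ± 0.05). The 3 genes thus fell by similar amounts, and in siControl cells their log2 fold changes were -0.70, -0.67 and -0.71. The fall was deeper in siChst7 cells for each of them, by -0.50, -0.45 and -0.43 (adjusted p = 3.44e-05, 0.000166 and 0.000123, edgeR). Transgene and endogenous transcripts of these genes cannot be told apart in a count per gene.

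Thin filament genes rose together: 14 of 16 tested were higher, 1 was lower, and 12 were at least 2-fold higher. The median log2 fold change was 2.49. Without the filter on low counts 15 of 18 rose and 1 fell (median 2.47). Cardiac troponin T, Tnnt2, had 861, 736 and 849 CPM at day 3 and 122, 96.3 and 114 at day 1 (2.88 ± 0.07). Tnnc1, troponin C of cardiac and slow muscle, had 504, 363 and 612 CPM at day 3 and 35.7, 31.3 and 32.2 at day 1 (3.90 ± 0.13). Cardiac troponin I, Tnni3, a marker of more mature heart muscle, rose too but stayed low, with 1.42, 1.48 and 2.61 CPM at day 3 and 0, 0.0465 and 0.105 at day 1. Tnni2, the fast skeletal form, had 45 counts over the day 3 libraries and 0 over those of day 1, which is at least 16.3-fold higher against a floor of 3 counts over the group. The lower member was Tpm1, an abundant tropomyosin, with 2990, 3054 and 3037 CPM at day 3 and 3369, 3238 and 3419 at day 1 (-0.14 ± 0.04); with scaling by library totals this was -0.04 and not called. The tropomodulin Tmod4, at 0.386 to 0.813 CPM at day 3 and 0.497 to 0.765 at day 1, was not called.

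Of 21 listed genes of the thick filament and titin 13 were tested, and the others were too low. Of these 13, 10 rose, each by at least 2-fold, and 1 fell (median 2.38). Members low at day 1 could pass the filter on their day 3 counts alone. Without the filter on low counts 11 of 20 rose and 1 fell (median 2.28). The M-band proteins Myom1 and Myom2, which cross-link myosin, rose by 3.68 ± 0.08 and 2.19 ± 0.07, and Ttn, the titin gene, had 45.3, 35.2 and 41.4 CPM at day 3 and 7.73, 7.82 and 7.85 at day 1 (2.38 ± 0.11). Atrial light chain Myl7 had 160, 90.4 and 154 CPM at day 3 and 12.6, 12.8 and 13.9 at day 1. The ventricular light chain Myl2 had 33 counts at day 3 and 0 at day 1, at least 11.9-fold higher against the same floor. The heavy chains of the heart were not among them. Myh6 had 2.44, 2.32 and 2.77 CPM at day 3 and 3.9, 2.81 and 3.38 at day 1 (-0.43 ± 0.17, adjusted p = 0.0298, edgeR). The call of Myh6 held under 7 of 16 alternatives. Myh7 had 0.784, 1.15 and 1.38 CPM at day 3 and 1.98, 0.837 and 1.15 at day 1 and was not called.

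Levels per length were compared among selected members of these families. Other members, such as the non-muscle actins, were left out, so the make-up of whole families is not shown. In TPM, counts scaled by the deposited gene lengths and to the same sum in each library, Tnnt2 averaged 1484 ± 39.1 at day 3 and 208 ± 23.7 at day 1 (SD, n = 3 each), against 28.9 ± 4.88 and 0.267 ± 0.104 for Tnnt3. Among the selected light chains at day 3, Myl9, the form of smooth muscle and non-muscle cells, stood at 1286 ± 58 TPM. Myl4 stood at 816 ± 85.4, Myl7 at 515 ± 115 and Myl2 at 1.11 ± 0.206. Myl4 and Myl9 did not overlap, and Myl4 and Myl7 did not overlap either. Non-muscle heavy chain Myh9 averaged 775 ± 120 TPM at day 3 and 1181 ± 11 at day 1, while Myh6 averaged 0.941 ± 0.0442 at day 3 and 1.3 ± 0.206 at day 1. Among the selected actins at day 3, Acta2 of smooth muscle stood at 2841 ± 118 TPM, Actc1 at 309 ± 41.3 and Acta1 of skeletal muscle at 123 ± 27.7. Actin genes are close copies of each other in their coding parts, and how reads that match more than 1 gene were counted is not given in the sources used here, so the split among them is uncertain.

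The Z-disc and muscle chaperone genes were mixed in direction, with 17 of 24 higher and 7 lower (median 1.28). Desmin, Des, the intermediate filament of muscle, had 82.7, 87.1 and 79.7 CPM at day 3 and 26.4, 25.3 and 24.2 at day 1 (1.72 ± 0.08), and Ldb3 and Synpo2l, both at the Z-disc, rose by 1.28 ± 0.05 and 1.58 ± 0.07. Murc, a caveolar protein of muscle, fell to 24.3, 22 and 26.2 CPM at day 3, against 74, 81.6 and 73.8 at day 1. Filamin C, Flnc, and the small heat shock protein Hspb7 also fell, by 1.02 and 1.79 on the log2 scale. Actn2, the sarcomeric alpha-actinin, was too low to test, with 5 counts over the day 3 libraries and 0 over those of day 1.

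Calcium-handling genes split in the same way. Casq2, the cardiac calsequestrin that binds calcium inside the store, had 298, 268 and 290 CPM at day 3 and 19, 15.3 and 18.8 at day 1 (4.01 ± 0.08). Junctophilin 2, Jph2, which joins the store to the surface membrane, had 128, 154 and 136 CPM at day 3 and 6.62, 6.35 and 6.26 at day 1 (4.45 ± 0.08). The calcium-binding protein Hrc rose by 3.87 ± 0.30. The pump itself did not follow: Atp2a2 (SERCA2) had 552, 643 and 567 CPM at day 3 and 815, 815 and 822 at day 1 (-0.48 ± 0.05). Ryr2, the release channel of the heart, had 73 counts at day 3 and 3 at day 1, a ratio of 26.4 (exact 95% interval for counting error 8.67 to 131), and Pln, the pump's regulator, stayed under 0.25 TPM on average at both days. Of 17 tested genes of this list 8 rose and 5 fell (median 0.53), and Cacna2d1, a calcium channel subunit, was the most abundant gene not called. Of 10 ion channel and gap junction genes 5 rose and 1 fell, among them the potassium channel Kcnc4 (2.85 ± 0.12) and the pacemaker channel Hcn4 (2.31 ± 0.28).

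Heart transcription factors beyond the delivered ones went both ways, and several were too low to test. Hand2, Irx4 and Prox1 had no counts in any of the 6 libraries, and Nkx2-5, Isl1, Tbx20 and Myocd were too low to test. Srf, which drives muscle and early-response genes, had 128, 140 and 127 CPM at day 3 and 210, 194 and 213 at day 1 (-0.64 ± 0.05), and Gata6 and Mef2a fell by 0.76 and 0.37 on the log2 scale. Mef2d was not called, at 54.8 to 60.9 CPM at day 3 and 59.2 to 62.6 at day 1. The natriuretic peptides, hormones released by stretched heart muscle, rose: Nppb had 56.5, 44.3 and 67.2 CPM at day 3 and 9.63, 8.3 and 9.48 at day 1 (2.61 ± 0.13), and Nppa 9.67, 8.57 and 10.7 CPM at day 3 and 1.35, 0.954 and 0.916 at day 1 (3.17 ± 0.19). Of the 13 tested genes of this list 5 rose and 6 fell, and the median was -0.06, or 0.04 with scaling by library totals.

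Promoters of 3 of the genes that rose are shown because they hold letters that factors of muscle genes are known to bind. Each is 250 bases before to 50 after the RefSeq start (GRCm38.p6, 5′ to 3′ in the gene's direction), with the motifs in capitals: in Actc1 (chr2:114052826-114053125, minus strand) a CArG box, the site of Srf, 47 bases before the start, and TATAAA 33 bases after it. Casq2 (chr3:102086165-102086464, plus strand) has a MEF2 motif 69 bases before the start. Nppb (chr4:147985650-147985949, plus strand) has the letters AGATAA, which GATA factors bind, 84 bases before the start, and a TATA box (TATAAA) 31 bases before it.
Actc1: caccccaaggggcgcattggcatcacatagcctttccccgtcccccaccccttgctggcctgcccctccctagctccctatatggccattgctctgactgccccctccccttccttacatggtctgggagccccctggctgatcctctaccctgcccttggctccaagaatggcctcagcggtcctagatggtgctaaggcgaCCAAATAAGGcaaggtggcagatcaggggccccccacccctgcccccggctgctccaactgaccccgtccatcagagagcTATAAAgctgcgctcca
Casq2: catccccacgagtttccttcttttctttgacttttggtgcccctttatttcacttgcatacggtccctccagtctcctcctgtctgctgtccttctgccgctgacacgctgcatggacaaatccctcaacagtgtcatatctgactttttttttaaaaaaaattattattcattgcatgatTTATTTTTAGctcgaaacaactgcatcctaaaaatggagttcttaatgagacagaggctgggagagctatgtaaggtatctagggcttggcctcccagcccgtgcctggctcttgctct
Nppb: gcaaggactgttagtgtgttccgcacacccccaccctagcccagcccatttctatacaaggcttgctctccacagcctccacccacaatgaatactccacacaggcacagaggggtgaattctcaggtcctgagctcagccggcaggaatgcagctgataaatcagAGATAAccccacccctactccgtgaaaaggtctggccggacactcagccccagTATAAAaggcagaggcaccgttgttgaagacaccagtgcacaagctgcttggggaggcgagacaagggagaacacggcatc
Over the 32851 windows of all RefSeq promoters, on both strands, 3.19% held the MEF2 motif, 1.63% the CArG box, 11.2% AGATAA, 1.28% the T-box motif AGGTGTGA and 13.6% TATAAA. Of the 13340 windows of tested genes these shares were 1.65%, 1.39%, 6.27%, 0.9% and 7.5%. Windows of genes at least 2-fold higher at day 3 held them in 2.83%, 1.79%, 7.84%, 1.89% and 10.1% of 1059 cases, and windows of genes at least 2-fold lower in 2.64%, 3.4%, 6.79%, 1.13% and 15.8% of 265. The MEF2 share was thus nearly the same in both sets, and that of the CArG box was larger among the genes that fell. Among the genes that fell these shares rest on 7 MEF2 and 9 CArG windows, against 30 and 19 among those that rose. The 265 windows came from 210 of 295 genes and the 1059 from 845 of 1182, so some genes gave several windows. Differences between the shares were not tested. A match is a run of letters, not a shown binding site.

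Metabolic genes moved less. Of 22 tested genes of fatty acid oxidation and energy buffering 12 rose and 5 fell (median 0.28), among them Fabp3, the fatty acid carrier of heart muscle, with 36.2, 31.6 and 38.4 CPM at day 3 and 7.91, 7.98 and 6.94 at day 1 (2.21 ± 0.13). Myoglobin, Mb, had 4.65, 3.37 and 3.57 CPM at day 3 and 0.106, 0.093 and 0.0524 at day 1. The trifunctional enzyme subunit Hadha fell by 0.55 on the log2 scale. Of 23 nuclear genes of the respiratory chain 12 rose and 8 fell, but with the length trend removed 4 rose and 12 fell, and the median was -0.12 in place of 0.22. Ndufa4 rose by 1.48 ± 0.11, and by 0.83 with the length trend removed, while the ATP synthase genes Atp5a1 and Atp5b fell by 0.63 and 0.43 on the log2 scale. Ppargc1a, a coactivator of mitochondrial genes, had 11.6, 11.7 and 16.7 CPM at day 3 and 15.8, 18.4 and 18.3 at day 1. Of 27 glycolysis and hypoxia genes 7 rose and 12 fell: Pkm, Ldha and Aldoa fell by 0.79, 0.62 and 0.69 on the log2 scale, and muscle enolase Eno3 rose by 0.58 ± 0.04.

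**Figure D4:**
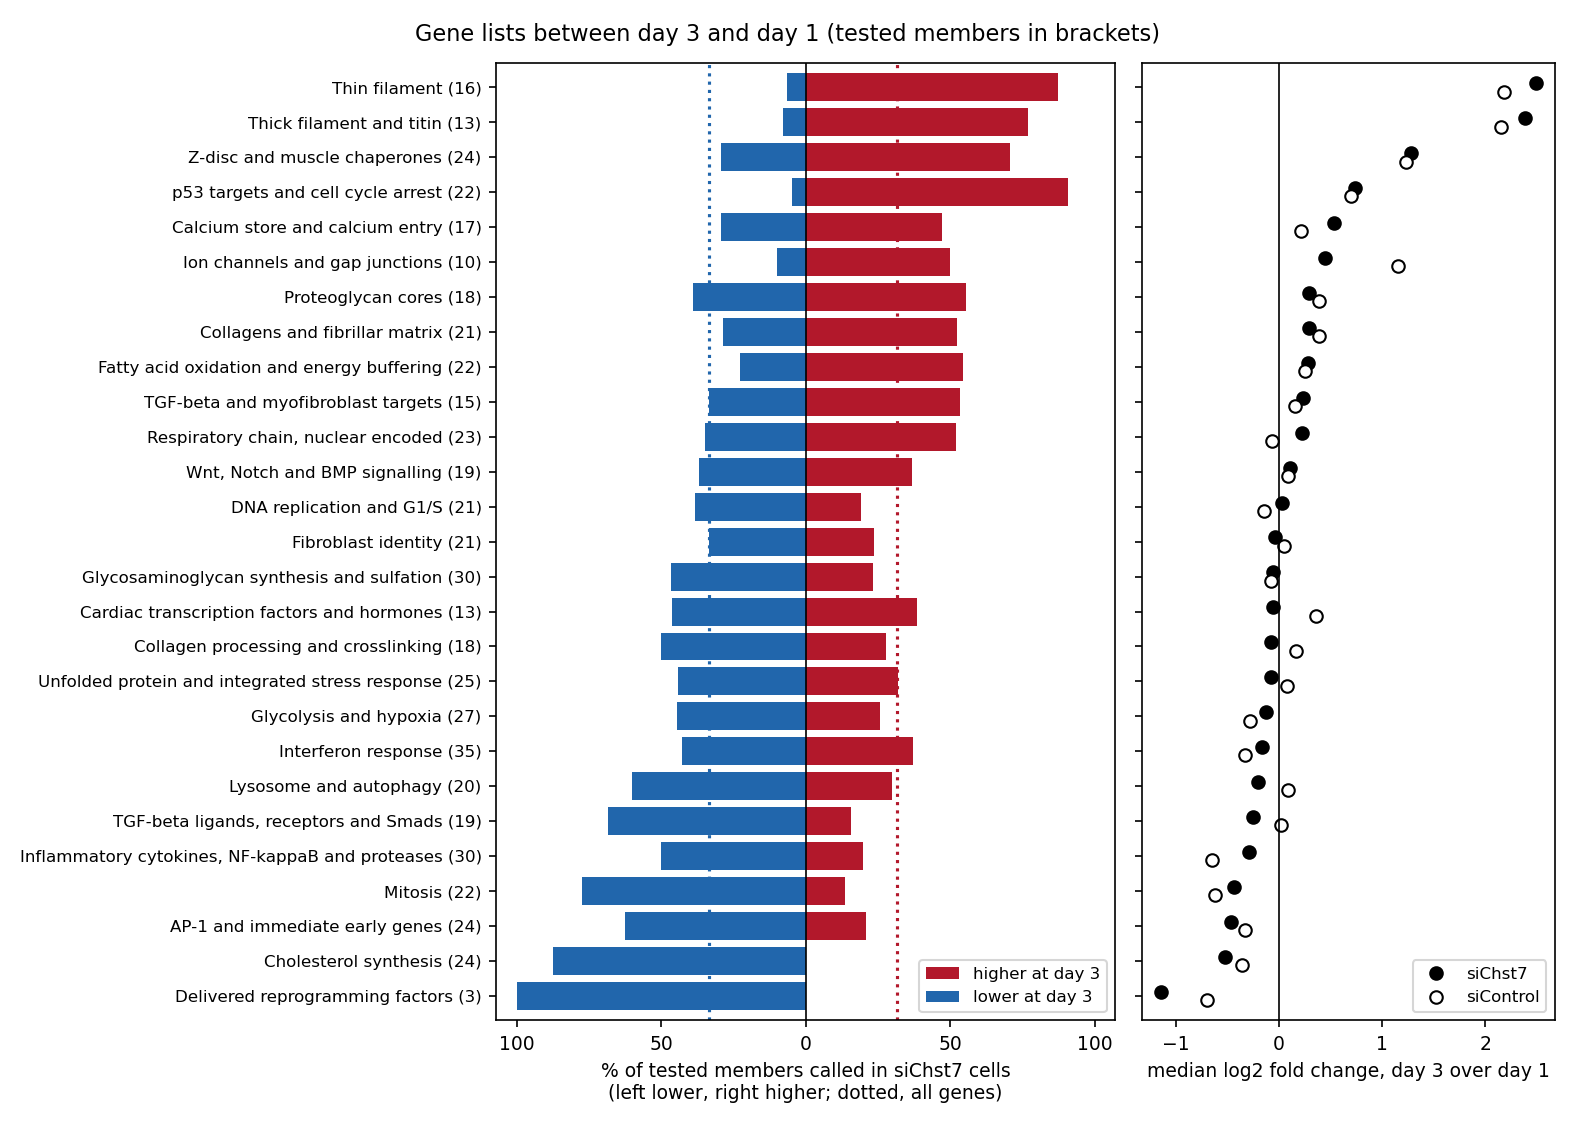
Left, for each of the pathway lists (tested members in brackets), the percent of members called lower (blue, to the left) and higher (red, to the right) at day 3 in siChst7 cells, with dotted lines at the shares over all genes, 33.5% and 31.7%. Right, the median log2 fold change of day 3 over day 1 in siChst7 cells (filled) and siControl cells (open); among these lists the thin filament stands highest, at 2.49 in siChst7 cells, and the delivered factors lowest, at -1.14.

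The 8 largest falls among genes with at least 5 CPM held signalling and matrix-degrading genes. Mmp3 (stromelysin 1; chromosome 9, 7445822 to 7455975) had 0.842, 0.832 and 1.45 CPM at day 3 and 43.2, 44.8 and 38.3 at day 1, a log2 fold change of -5.37 ± 0.11 (adjusted p = 1.02e-19, edgeR). The collagenase Mmp13 had 1.39, 0.585 and 1.32 CPM at day 3 and 16.2, 18 and 16.3 at day 1 (-4.00 ± 0.15). Penk, the precursor of the enkephalin peptides, had 0.407, 0.382 and 0.0644 CPM at day 3 and 16.4, 16 and 12.3 at day 1 (-5.63 ± 0.25). These 3 genes were nearly silent at day 3 in every library. The leukocyte integrin chain Itgb7 fell by 2.87, the nuclear receptor Nr4a3 by 2.79, the zinc finger factor Egr2 by 2.78, decorin Dcn by 2.51 and the vasodilator peptide adrenomedullin Adm by 2.31 on the log2 scale.

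The protease promoters are shown because both hold TGAGTCA or its reverse complement, the AP-1 motif, within 50 bases of the start, followed by TATAAA (motifs in capitals, RefSeq GRCm38.p6, both plus strand). In Mmp3 (chr9:7445572-7445871) the AP-1 motif lies 46 bases and TATAAA 7 bases before the start, and in Mmp13 (chr9:7272264-7272563) 35 and 16 bases before it.
Mmp3: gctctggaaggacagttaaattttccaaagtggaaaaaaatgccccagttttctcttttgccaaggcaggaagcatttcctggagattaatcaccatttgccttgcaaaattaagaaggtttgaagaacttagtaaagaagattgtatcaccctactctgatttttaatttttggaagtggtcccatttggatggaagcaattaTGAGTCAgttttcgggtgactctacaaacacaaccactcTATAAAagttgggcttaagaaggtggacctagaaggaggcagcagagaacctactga
Mmp13: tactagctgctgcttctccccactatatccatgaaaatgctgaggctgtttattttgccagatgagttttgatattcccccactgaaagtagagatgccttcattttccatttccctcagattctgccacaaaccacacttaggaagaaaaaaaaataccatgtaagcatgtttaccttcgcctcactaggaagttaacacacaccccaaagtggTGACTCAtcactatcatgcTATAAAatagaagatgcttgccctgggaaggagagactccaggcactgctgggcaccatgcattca
The AP-1 motif was in 8.3% of 265 windows of genes at least 2-fold lower at day 3, in 4.08% of those of tested genes and in 5.2% of all RefSeq promoters. It was in 4.44% of the 1059 windows of genes at least 2-fold higher.

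Genes of AP-1 and the immediate early response, which follow growth factor signals within minutes, were lower for the most part: 15 of 24 fell, 5 rose and the median was -0.46. Egr1 had 49.8, 51.8 and 55.3 CPM at day 3 and 131, 121 and 121 at day 1 (-1.25 ± 0.06). Egr2 had 2.41, 2.11 and 2.83 CPM at day 3 and 16.4, 16.9 and 16.6 at day 1. Dusp6, a phosphatase of the ERK pathway, fell by 1.10 on the log2 scale, and Jun rose by 0.41 ± 0.05. Fos was at 4.32 to 6.27 CPM at day 3 and 5.39 to 6.28 at day 1 and was not called.

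Fibroblast genes did not move as a group. Of 21 genes of fibroblast identity 5 rose and 7 fell (median -0.04). The number that rose was 8 with scaling by library totals and 3 without replicate 1 of day 1. Decorin had 12.9, 7.15 and 13.3 CPM at day 3 and 61.9, 66.4 and 58.1 at day 1 (-2.51 ± 0.12). Vimentin, Vim, the intermediate filament of mesenchymal cells, had 5068, 4890 and 5509 CPM at day 3 and 7450, 7279 and 7514 at day 1 (-0.52 ± 0.04). The protease Fap fell by 2.59 ± 0.19, more than decorin, but lay outside the 8 largest falls at 5 CPM or more. S100a4 had 609, 411 and 650 CPM at day 3 and 231, 231 and 229 at day 1 (1.27 ± 0.11, and 0.63 with the length trend removed). The receptors Ddr2 and Pdgfra were not called: Ddr2 had 252, 263 and 256 CPM at day 3 and 246, 260 and 254 at day 1. The fibroblast markers Thy1 and Lum were too low to test at both days, although the line is labelled as embryonic fibroblasts, while Col1a1, Col1a2, Ddr2 and Vim were high.

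Collagen and matrix genes went both ways, 11 of 21 higher and 6 lower (median 0.29). Col12a1, a collagen that coats fibrils under tension, had 2443, 2517 and 2440 CPM at day 3 and 508, 529 and 557 at day 1 (2.22 ± 0.06). Col8a1 rose by 1.01 ± 0.04. Col3a1 had 12.5, 10.8 and 9.92 CPM at day 3 and 54.9, 48.3 and 51.6 at day 1 (-2.22 ± 0.09), and tenascin C, Tnc, fell by 1.15 on the log2 scale. Col1a1 and Col1a2, whose products form the same fibril, moved apart: 2609, 2698 and 2711 CPM at day 3 and 2192, 2167 and 2183 at day 1 for Col1a1 (0.29 ± 0.06), and 949, 1048 and 976 CPM at day 3 and 1208, 1194 and 1174 at day 1 for Col1a2 (-0.27 ± 0.05). Among 18 genes that process and cross-link collagen 5 rose, with Lox, lysyl oxidase, at 643, 653 and 651 CPM at day 3 and 391, 412 and 418 at day 1, and 9 fell, or 5 with scaling by library totals.

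Of the TGF-beta pathway, 13 of 19 ligands, receptors and Smads fell and 3 rose (median -0.25). Tgfb1 had 43.7, 51.9 and 43.3 CPM at day 3 and 81.1, 83.6 and 77.6 at day 1 (-0.80 ± 0.06), and Inhba, the activin A subunit, fell by 1.06 on the log2 scale. Smad4, the shared mediator, fell by 0.36, and Tgfbr1 was not called. Its targets and contractile myofibroblast genes were divided, 8 of 15 higher and 5 lower. Cyr61, a secreted matrix protein, had 538, 581 and 565 CPM at day 3 and 957, 928 and 960 at day 1 (-0.76 ± 0.04). The contractile genes rose: calponin Cnn1 had 14.4, 14.5 and 15.9 CPM at day 3 and 1.27, 1.14 and 1.18 at day 1 (3.64 ± 0.15), and transgelin Tagln had 446, 431 and 523 CPM at day 3 and 176, 170 and 175 at day 1 (1.43 ± 0.06).

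Markers of smooth muscle as a whole rose in 9 of 10 genes and fell in 1, Smtn, with a median of 1.44. Acta2 had 3164, 2892 and 3569 CPM at day 3 and 1478, 1505 and 1582 at day 1 (1.08 ± 0.06), and Lmod1, leiomodin, 19, 22.1 and 20.8 CPM at day 3 and 3.11, 2.14 and 1.94 at day 1 (3.11 ± 0.15). Myh11, the defining heavy chain of smooth muscle, was at 0.675 to 0.934 CPM at day 3 and 0.0524 to 0.158 at day 1. Cardiomyocyte markers rose in 7 of 9 tested genes and fell in 1, Myh6. Of skeletal muscle markers 4 were tested; Myog, myogenin, had 67 counts over the day 3 libraries and 0 over those of day 1, at least 24.2-fold higher, Actn3 fell, and all 4 stayed under 2 CPM. Macrophage markers rose in 2 of 7 genes, Lyz2 and Aif1 (4 of 7 with scaling by library totals), and Ptprc, which all leukocytes carry, had 4 counts at day 3 and 3 at day 1. Fibroblast markers rose in 1 of 6 and fell in 3, mesothelial markers rose in 3 of 5 and neuronal ones in 3 of 6, with none lower in either. Adipocyte markers rose in 1 of 3 and fell in 1, endothelial ones rose in 1 of 4 and fell in 1, and epithelial ones fell in 2 of 3. The part of such cells in the results was not tested. Mesothelial Msln had 106, 105 and 103 CPM at day 3 and 29.4, 34.7 and 30.2 at day 1, and the neuronal microtubule protein Map2 had 16.6, 18.6 and 15.5 CPM at day 3 and 5.59, 4.95 and 4.63 at day 1. Cebpa of adipocytes rose by 1.48 ± 0.09. Endothelial Vwf fell by 2.34 and epithelial Krt8 by 2.20 on the log2 scale, both under 6 CPM in each library. Of 5 cartilage and bone markers 2 rose and 2 fell.

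Of 30 genes of glycosaminoglycan synthesis and sulfation, the pathway of Chst7, 14 fell and 7 rose. With scaling by library totals 12 fell and 11 rose, and by the upper quartile 13 fell and 11 rose. Chst11, a chondroitin 4-sulfotransferase, had 54.6, 56.9 and 52.8 CPM at day 3 and 94.8, 95.9 and 93.6 at day 1 (-0.79 ± 0.05). The chondroitin polymerizing factor Chpf2 fell by 0.73, the heparan sulfate polymerase Ext1 by 0.72 and the hyaluronan synthase Has2 by 2.61 on the log2 scale. Chst3, which adds sulfate to carbon 6 of the sugar as Chst7 does, had 39.2, 42.3 and 42.3 CPM at day 3 and 27.6, 28.7 and 33 at day 1 (0.47 ± 0.09). Dse, the epimerase that makes dermatan sulfate, was not called, at 129 to 134 CPM at day 3 and 128 to 132 at day 1. Of 18 proteoglycan core proteins 10 rose and 7 fell. Agrin, Agrn, rose by 1.23 ± 0.05, osteoglycin, Ogn, by 4.93 ± 0.35, and syndecan 4, Sdc4, fell by 0.67 on the log2 scale. Has2 and Ogn lay outside the 8 largest changes each way at 5 CPM or more, despite larger folds than some genes named there.

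Of 22 mitosis genes 17 fell and 3 rose (median -0.43): Mki67, the proliferation antigen, had 265, 249 and 248 CPM at day 3 and 454, 472 and 444 at day 1 (-0.85 ± 0.04), and Plk1 and Tpx2 of the spindle fell by 0.84 and 0.70 on the log2 scale. Cdk1 rose by 0.36 ± 0.08. Of 21 replication and G1/S genes 8 fell and 4 rose, with scaling by library totals 4 fell and 11 rose, and with the length trend removed 9 fell and 2 rose, so no direction is given for them. Targets of p53 and arrest genes rose in 20 of 22 tested, and 1, Plk2, fell (median 0.74). Cdkn1a, the p21 inhibitor of cyclin-dependent kinases, had 797, 935 and 802 CPM at day 3 and 501, 509 and 515 at day 1 (0.73 ± 0.05). Mdm2, which marks p53 for breakdown, had 470, 484 and 501 CPM at day 3 and 285, 290 and 293 at day 1 (0.75 ± 0.04), and the death genes Pmaip1 and Eda2r rose by 1.05 ± 0.06 and 1.06 ± 0.06. Zmat3 was not called.

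The cholesterol pathway fell almost throughout: 21 of 24 genes were lower, none of the 24 was higher, and the median was -0.52. Cyp51, a demethylase of lanosterol, had 129, 131 and 128 CPM at day 3 and 294, 310 and 283 at day 1 (-1.19 ± 0.05). Hmgcs1, an early enzyme of the pathway, fell by 0.89 on the log2 scale, and Srebf2, the regulator of the pathway, had 141, 153 and 129 CPM at day 3 and 242, 245 and 240 at day 1 (-0.78 ± 0.05). Ebp, Dhcr7 and Tm7sf2 were not called.

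Lysosome genes were lower in 12 of 20 and higher in 6 (median -0.20). The hexosaminidase chain Hexa had 200, 232 and 209 CPM at day 3 and 391, 400 and 406 at day 1 (-0.90 ± 0.05). Of 30 inflammatory genes 15 fell and 6 rose, with complement C3 at 50.8, 58 and 51.9 CPM at day 3 and 166, 171 and 161 at day 1 (-1.63 ± 0.05). Csf1, the macrophage growth factor, fell by 1.03, and the chemokine Ccl7 had 135, 87.3 and 149 CPM at day 3 and 51.2, 48.4 and 54.5 at day 1 (1.27 ± 0.12, and 0.82 with the length trend removed). Interferon response genes showed no common direction, 13 of 35 higher and 15 lower, with Xaf1 rising by 1.16 ± 0.14 and Oasl1 falling by 1.43 on the log2 scale. In siControl cells 5 of the interferon genes rose and 23 fell. The difference between the changes was called above 0 in 12 and below 0 in 1, against 15.3% and 13.1% of all tested genes. Their summed CPM ranged from 2208 to 3166 among the siChst7 day 3 libraries. Stress response genes were likewise divided, 8 of 25 higher and 11 lower (7 lower with scaling by library totals): Ddit3, the CHOP factor, rose by 0.97 ± 0.07 and the serine enzyme Psat1 fell by 1.01. Of 19 Wnt, Notch and BMP genes 7 rose and 7 fell, among them Notch3 (58.2, 66 and 60.5 CPM at day 3, 20.3, 19.2 and 20.9 at day 1), Bmp4 (up by 2.24 ± 0.12), the Wnt target Axin2 (down by 1.12) and the BMP antagonist Grem1 (387, 387 and 354 CPM at day 3, 950, 971 and 948 at day 1).

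Over the same interval siControl cells had 7612 genes called (55.2%), 3150 higher (22.8%) and 4462 lower (32.3%), with 874 at least 2-fold higher (6.33%) and 275 at least 2-fold lower (1.99%). In siControl cells 41.4% of the called genes were higher, with 65% with scaling by library totals and 57.3% by the upper quartile. Of the genes called in siChst7 cells 2366 were higher and 3394 lower in both siRNAs, 225 rose in siChst7 and fell in siControl cells, and 82 fell in siChst7 and rose in siControl cells. A test of the difference between the changes called 3926 genes (28.4%), 2112 with the siChst7 change above that of siControl (15.3%) and 1814 below it (13.1%). This balance turned with the scaling: with DESeq2 size factors 1834 were above and 2259 below, with library totals 1845 and 2142, and without replicate 3 of siChst7 at day 3 they were 1458 and 1773. By at least 2-fold the siChst7 change was above in 213 genes (1.54%) and below in 39 (0.283%). Without replicate 2 of siChst7 at day 3 these were 428 and 62, without replicate 3 of siChst7 at day 3 the first was 102, and with the length trend removed it was 93. Of 76 ribosomal protein genes the difference was called above 0 in 63 and below 0 in none, and in 45 and 7 with the length trend removed.

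**Figure D5:**
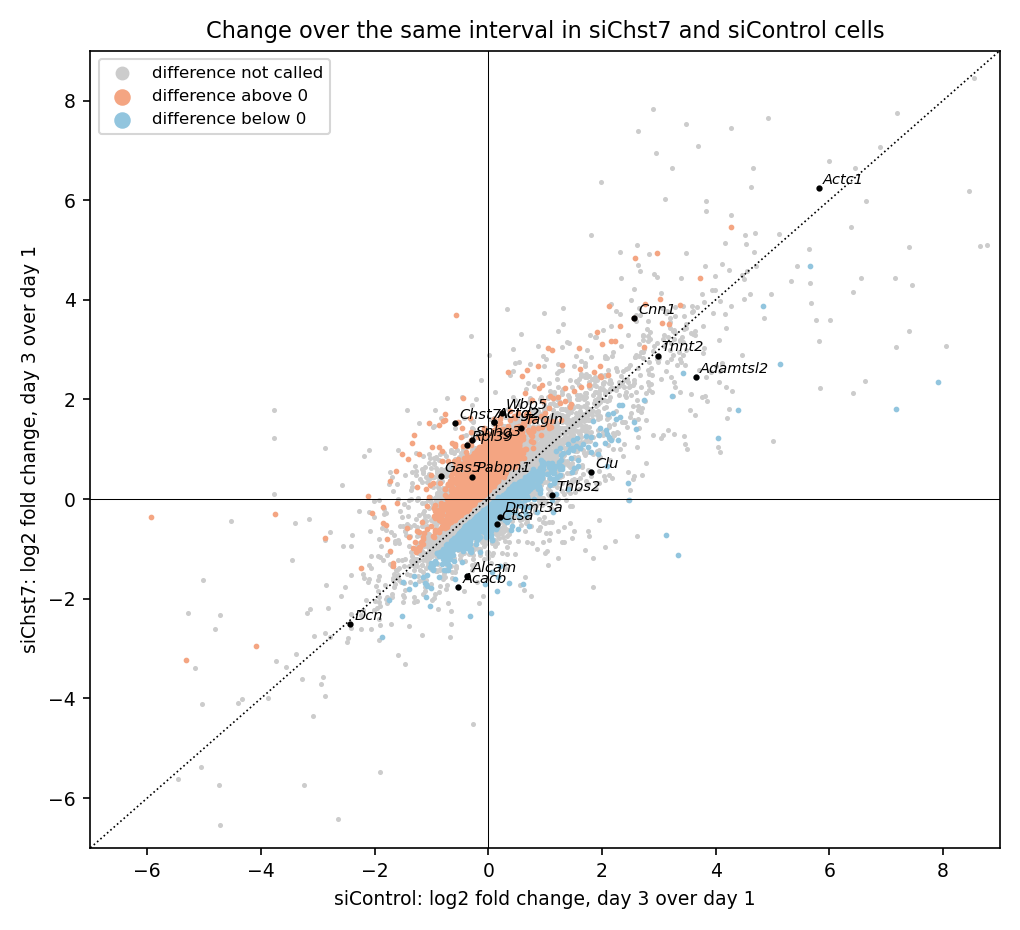
Log2 fold change of day 3 over day 1 in siChst7 cells (vertical axis) against that in siControl cells (horizontal axis) for the 13802 tested genes, coloured where the difference between the changes was called. The dotted line marks equal change; Chst7, Actg2, Rpl39 and Wbp5 lie above it, and Alcam, Acacb, Clu and Thbs2 below it.

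The muscle lists did not all shift the same way between the siRNAs. The difference was called above 0 in 2 of 16 thin filament genes and below 0 in none, with a median of 0.46. Of 13 thick filament genes 2 were called above 0 and none below, with a median of 0.51. The median over all tested genes was 0.01, and 15.3% of them were called above 0 and 13.1% below. In the shortest of the 10 length groups the median difference was 0.42, and in the next it was 0.15. The medians of the filament lists are given without removal of this length trend. Of 17 calcium genes 2 were above 0 and 2 below (median 0.13). Of 24 Z-disc genes 3 were above 0 and 6 below (median -0.18). Single genes did rise more in siChst7 cells. Casq2 rose by 4.01 in siChst7 and 3.02 in siControl cells (difference 1.00, adjusted p = 2.15e-06, edgeR). Jph2 rose by 4.45 in siChst7 and 3.72 in siControl cells (difference 0.73, adjusted p = 0.000107), and Nppb by 2.61 in siChst7 and 1.62 in siControl cells (difference 0.99, adjusted p = 0.000573, and 0.58 with the length trend removed). For Myl7 the log2 fold change was 3.36 in siChst7 and 1.92 in siControl cells (difference 1.44, and 0.90 with the length trend removed). Tnnt2 and Actc1 gave differences of -0.10 and 0.42 with adjusted p = 0.472 and 0.302. The difference for Tnnc1 (0.52, adjusted p = 0.0264) was 0.05 with the length trend removed.

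Contractile genes of smooth muscle stood apart in the same direction: the difference was above 0 in 6 of 10 markers and below 0 in none, and these counts were also 6 and 0 with the length trend removed and without replicate 2 of siChst7 at day 3. Actg2 had 19.1, 21.9 and 23.7 CPM at day 3 and 6.36, 7.68 and 7.98 at day 1 in siChst7 cells, and 13.4, 14.2 and 14.8 CPM at day 3 and 13, 13.3 and 13.4 at day 1 in siControl cells (difference 1.46 ± 0.14, adjusted p = 1.82e-06, edgeR). The siChst7 libraries were thus above those of siControl at day 3 and below them at day 1. Tagln and Acta2 gave differences of 0.86 and 0.61 (adjusted p = 1.29e-06 and 5.32e-05).

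Matrix, lysosome and cholesterol genes lay on the other side. Among collagens and matrix genes the difference was above 0 in 1 of 21 and below 0 in 10, among lysosome genes above 0 in none of 20 and below 0 in 12, and among cholesterol genes above 0 in none of 24 and below 0 in 12. For cholesterol the second count was 7 without replicate 2 of siChst7 at day 1 or replicate 3 of siControl at day 1, and without replicate 2 of siChst7 at day 3 the first was 3. Thbs2, an angiogenesis inhibitor of the matrix, had 54.4, 61.3 and 53.1 CPM at day 3 and 51.7, 52.4 and 56.3 at day 1 in siChst7 cells, and its log2 fold change was 0.08 there and 1.12 in siControl cells. Pdgfrb, the PDGF receptor of mesenchymal cells, did not pass the test in siChst7 cells (0.01 ± 0.04) and rose by 0.80 in siControl cells (difference -0.79, adjusted p = 2.39e-08). Sparc rose by 0.51 in siChst7 and 1.05 in siControl cells. The lysosomal protease Ctsa had 323, 368 and 313 CPM at day 3 and 464, 500 and 463 at day 1 in siChst7 cells, and 408, 444 and 422 CPM at day 3 and 382, 393 and 365 at day 1 in siControl cells.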

How the data were processed

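Poly-A RNA libraries were counted per gene, and the authors deposited whole-number read counts for 18 libraries with gene lengths. Per the submitters' processing notes, HISAT2, Subread featureCounts, DESeq2 and mm10 were used; for versions, annotation, strand and multiply mapped reads: not given in the sources used here. A fit of all 6 groups was made with edgeR 4.0.16 (R 4.3.3, limma 3.58.1; filterByExpr, TMM, quasi-likelihood, 12 residual degrees of freedom) on 13802 genes, the samples being grouped by their labels. Day 3 minus day 1 in siChst7 cells, in siControl cells and the difference of these changes were tested. P-values had Benjamini-Hochberg adjustment over all tested genes, with an adjusted p threshold of 0.05. The fit takes 1 spread per gene for all groups. SEs and adjusted p-values thus average the wider spread of siChst7 day 3 with that of the other groups. A fit of only the compared libraries called 7906 genes in siChst7 cells, against 8998. CPM use TMM-scaled library sizes and TPM use the deposited lengths; a count of 0 over a group was set against a floor of 3 counts, and the floors and exact 95% intervals cover counting error only.

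Named genes are the target, the delivered factors, the 8 largest changes each way at 5 CPM or more, up to 4 called members of each list with the smallest p and its most abundant uncalled member, the 5 largest differences each way, and up to 5 genes that moved oppositely with the 2 siRNAs; other list members were named after their values were seen. The members and lists were chosen with earlier results of these data known. Alternatives were other scalings (DESeq2 1.42.0 size factors, library totals, upper quartile, Rn45s left out), filters, the DESeq2 test, fewer libraries, a replicate block, removal of the length trend and leaving out each library. The fit was tested on simulated counts of day 3 minus day 1 in siChst7 cells with 13802 genes. It recovered 96% of 100 genes changed by 1 and 80% of 100 changed by 0.5 on the log2 scale, with 7 false calls. Every simulated group had the same spread per gene, and no length trend was put in between the siChst7 days. The recovery and false calls thus do not cover the wider spread or the length trend of the real siChst7 day 3 libraries. Symbols turned into dates (25) were not named, no mitochondrial genes were listed (0), and 23591 symbols (96.2%) matched RefSeq GRCm38.p6, the source of positions and promoters.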

Additional observations from a re-analysis of the deposited data

Results flagged for a closer look

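The change from day 1 to day 3 differed between siChst7 and siControl cells in 3926 genes by the interaction term of the edgeR fit. Among those singled out by the naming rule, the siChst7 change was above that of siControl for Chst7 (log2 difference 2.10), Wbp5 (1.49), the smooth muscle actin Actg2 (1.46), the small nucleolar RNA hosts Snhg3 (1.46) and Gas5 (1.30), the ribosomal protein gene Rpl39 (1.45) and the poly-A binding protein gene Pabpn1 (0.74). With the length trend removed these differences were called again but smaller for Rpl39 (0.80), Snhg3 (0.82) and Wbp5 (1.19), while Gas5 stood at 1.28 and Actg2 at 1.29. Wbp5 had 433, 299 and 472 CPM at day 3 and 118, 124 and 122 at day 1 in siChst7 cells, and 222, 231 and 227 CPM at day 3 and 190, 191 and 194 at day 1 in siControl cells. Rpl39 had 292, 212 and 330 CPM at day 3 and 137, 126 and 132 at day 1 in siChst7 cells, and 123, 121 and 122 CPM at day 3 and 143, 166 and 165 at day 1 in siControl cells; its reads may be shared with near-identical copies.

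The siChst7 change was below that of siControl for the chaperone clusterin Clu (-1.26), the acetyl-CoA carboxylase Acacb (-1.24), the matrix protein Adamtsl2 (-1.19), the adhesion molecule Alcam (-1.18), Thbs2 (-1.04), the lysosomal Ctsa (-0.67) and the DNA methyltransferase Dnmt3a (-0.56). Alcam had 16.3, 18 and 17.9 CPM at day 3 and 50.5, 49.8 and 52.2 at day 1 in siChst7 cells, and 16.9, 15.6 and 17.4 CPM at day 3 and 20.6, 22.6 and 21.2 at day 1 in siControl cells. The Alcam groups thus lay close together at day 3 and apart at day 1.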

How the results depend on the processing

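Counts of called genes were compared under 11 settings and with each library left out, and those not named here were within 1.5 times the reported count. With the stricter filter, which tests fewer genes, at least 2-fold calls in siChst7 cells were 581 higher and 155 lower, in siControl cells 414 higher and 109 lower, and for the difference 120 above and 17 below. With scaling by library totals siControl cells had 4833 genes higher, 2599 lower and 179 at least 2-fold lower; the cause was not tested. For the difference by at least 2-fold, no filter gave 64 below, length correction 93 above and the replicate block with length correction 91 above.

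Leaving out 1 library each gave, in siChst7 cells, 8390 to 9270 called, 4014 to 4614 higher, 4203 to 4656 lower, 1076 to 1389 at least 2-fold higher and 289 to 310 at least 2-fold lower. In siControl cells the ranges were 6949 to 7114, 2845 to 2956, 4093 to 4181, 847 to 870 and 248 to 276, and for the difference 3057 to 5580, 1458 to 2939, 1390 to 2641, 102 to 428 and 31 to 62. Of the values of genes named by the rule, 18 not called as reported passed the threshold under at least 1 alternative, among them those of Cacna2d1, Ddr2, Dse, Ebp, Thbs2 and Zmat3 in siChst7 cells. Map1lc3a, not called at 0.10, was -0.19 with length correction and with the replicate block and length correction. No pairing by replicate number was detected (correlations of deviations -0.043 to 0.031), which does not show that the samples were unpaired. The replicate block gave 8929 calls in siChst7 cells, against 8998 without it, and 3717 for the difference, against 3926. For the difference, 53.8% of calls were above 0, against 44.7% with the DESeq2 test, 46.4% with the stricter filter and 42.8% with no filter. Depth limits genes under about 1 CPM, whose folds rest on few counts.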
